A study of Rattus norvegicus with 10 samples.

Results

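The genes described here are Nfe2l2, Keap1, Nqo1, Gclc, Gclm, Gsr, Txnrd1, Txn1, Srxn1 and Hmox1, which belong to the NRF2 pathway and to the glutathione and thioredoxin systems that it regulates. Their probe sets were those that the platform annotation assigns to exactly 1 gene symbol. All 10 genes had at least 1 such probe set, and 4 of them had 2, which gave 14 of the 15899 probe sets in the table. The genes were chosen from the pathway when the differences between RG3487 and vehicle on these same arrays were already known. Their differences between the groups are therefore given as a description, without a test of their own.

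Liver RNA came from 10 CRL:WI (Han) rats aged 6 to 8 weeks, with 1 Affymetrix array per animal. The vehicle group held 5 rats given deionized water by gavage, and the treated group held 5 rats given RG3487 at 180 mg/kg by the same route, both in 5 ml/kg. RG3487 is an orally active compound developed as a partial agonist of a nicotinic acetylcholine receptor. The sample labels place the livers at 24 h after dosing, whereas the series text gives 2 h, and the former is used here. The sex of the rats was not stated in the labels. The rats were kept in cages of 5, so cage and treatment may coincide and then cannot be told apart. The values are MAS5 signals, an Affymetrix measure of probe set brightness, and they were compared as log2 of signal plus 16. The number of arrays limits their precision. The array means were nearly equal, between 330 and 332, while the array medians were 85 to 93 in the vehicle group and 92 to 96 with RG3487. Hepatocyte markers were bright, with Alb at 5637 or more on every array. Of the 10 with a probe set 1 was higher and 6 lower with RG3487, and their summed signal was 64422 to 68055 in vehicle and 53497 to 63836 in treated rats. The marker counts here stand beside 22.3% higher and 7.4% lower among all 7727 genes tested. Endothelial markers were lower in 1 of 5 tested and stellate cell markers higher in 1 and lower in 1 of 5, while of 1 cholangiocyte, 2 lymphocyte and 2 erythroid markers tested 0 passed limma's threshold, and 1 lymphocyte marker was lower at an unadjusted p under 0.05.

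NRF2, encoded by Nfe2l2, is a transcription factor that is kept scarce in resting cells because KEAP1 hands it to a ubiquitin ligase. Electrophiles and oxidants modify cysteines of KEAP1, after which NRF2 accumulates, pairs with small MAF proteins and binds antioxidant response elements in the control regions of its targets. In liver these targets make and recycle glutathione, keep thioredoxin and peroxiredoxins reduced, and detoxify quinones. Much of the control of NRF2 acts on the protein, which arrays do not measure.

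Antioxidant response elements share a core that can be spelled TGACNNNGC, where N is any base. The letters were searched on both strands of the RefSeq promoter windows of build GRCr8, each 300 bases long, with 250 bases before and 50 after an annotated start. RefSeq windows were matched for 8 of the 10 genes, in 9 windows, since Txnrd1 has 2 starts. Gsr and Hmox1 were the other members. The core occurred in 3 of these 9 windows, of Gclm, Nfe2l2 and Txnrd1, and in 12.1% of all 33469 windows. Its extended form with a further A, TGACNNNGCA, contains the shorter one. It occurred in the Gclm and Txnrd1 windows and in 3.0% of all windows. The 3 windows are shown because they hold the core in genes that were higher with RG3487, in lower case with the core in capitals.
Gclm: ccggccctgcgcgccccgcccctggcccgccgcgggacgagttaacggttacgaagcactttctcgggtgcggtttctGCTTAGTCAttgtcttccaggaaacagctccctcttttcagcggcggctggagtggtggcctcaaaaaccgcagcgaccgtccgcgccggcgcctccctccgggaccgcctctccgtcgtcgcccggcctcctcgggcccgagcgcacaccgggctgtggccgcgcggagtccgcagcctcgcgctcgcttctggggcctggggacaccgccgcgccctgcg
Txnrd1: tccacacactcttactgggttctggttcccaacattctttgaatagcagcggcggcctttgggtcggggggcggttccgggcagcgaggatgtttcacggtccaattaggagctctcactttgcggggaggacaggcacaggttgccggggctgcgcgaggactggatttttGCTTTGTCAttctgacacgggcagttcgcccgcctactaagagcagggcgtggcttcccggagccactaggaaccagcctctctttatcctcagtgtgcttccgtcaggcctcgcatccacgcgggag
Nfe2l2: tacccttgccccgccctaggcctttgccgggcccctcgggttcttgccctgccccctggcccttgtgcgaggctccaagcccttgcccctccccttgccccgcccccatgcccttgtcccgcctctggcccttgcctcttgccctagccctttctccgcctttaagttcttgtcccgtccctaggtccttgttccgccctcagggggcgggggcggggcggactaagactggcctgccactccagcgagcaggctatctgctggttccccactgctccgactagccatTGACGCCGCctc
The Gclm window lies at chr2:213031885-213032184 on the plus strand, the Txnrd1 window at chr7:22755855-22756154 on the minus strand and the Nfe2l2 window at chr3:81028950-81029249 on the minus strand. Each is written in the direction of its gene. In Gclm and Txnrd1 the core is on the opposite strand, so the capitals show its reverse complement, at bases -172 to -164 and -78 to -70 before the start. In Nfe2l2 it is on the strand of the gene, at bases 39 to 47 after the start. A match describes the letters only, and binding was not measured in these samples. Other spellings and bases outside the windows were not searched, so a window without a match does not show that a gene lacks an element.

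With RG3487, 7 of the 10 genes were higher past the threshold of limma, a linear model fitted over all probe sets, at a Benjamini-Hochberg adjusted p under 0.05, and 0 were lower. Among all 7727 genes tested, 22.3% were higher and 7.4% lower by the same rule. Because the genes were chosen with this contrast known, nothing is read from that count. The median log2 difference was 0.53 over the 10 genes and 0.09 over all genes. All 14 probe sets passed the filter on dim signals. In 4 genes, Nfe2l2, Gclc, Gclm and Txn1, every treated rat lay above every vehicle rat, an arrangement found in 15.5% of all genes. The 3 genes that did not pass were Keap1, Nqo1 and Hmox1. At an unadjusted p under 0.05, 0 of the 10 genes were lower as well.

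**Figure D1:**
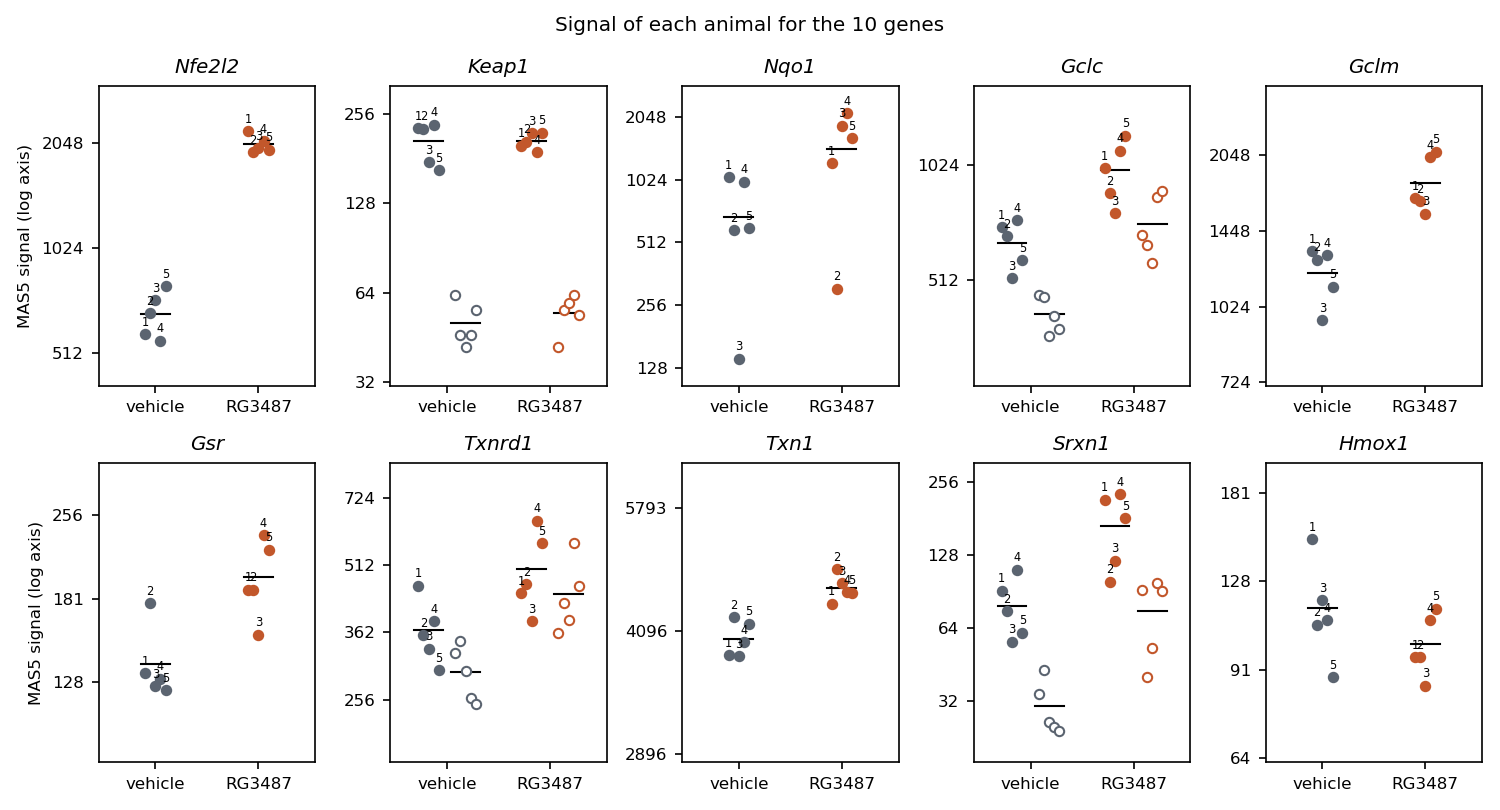
MAS5 signal (log axis, a separate range per panel) of the 10 genes in the 5 vehicle rats and 5 RG3487 rats. Filled points are the brightest probe set of a gene, numbered by animal, open points are the other probe set where a gene has 2, and bars are group means. Nfe2l2 separates the groups widely, with 554 to 795 against 1929 to 2215, whereas Nqo1 spreads over both groups.

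Nfe2l2 showed the largest difference among the 10 genes. Its signal in vehicle rats 1 to 5 was 577, 664, 724, 554 and 795. In RG3487 rats 1 to 5 it was 2215, 1929, 1984, 2076 and 1963. The lowest treated animal was above the highest vehicle animal. The group means were 663 ± 101 (SD, n = 5) and 2033 ± 115 (n = 5), a log2 difference of 1.60 ± 0.09 (SE), or 3.04-fold. This difference exceeded that of 99.8% of the probe sets tested.

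Keap1, the sensor that holds NRF2 in check, was measured by 2 probe sets. With the brighter one the vehicle rats gave 229, 228, 176, 235 and 165 and the RG3487 rats 200, 206, 220, 190 and 221. The treated values fell inside the range of the vehicle values. The log2 difference was 0.02, with a 95% confidence interval of -0.20 to 0.24. The dimmer probe set gave 50.6 ± 8.6 and 54.8 ± 7.9 (SD, n = 5 each), with a log2 difference of 0.09 and an interval of -0.15 to 0.33. The sign of the Keap1 difference turned with the scaling of the arrays, from -0.09 with quantile normalization to 0.21 when arrays were scaled to the hybridization controls, which are foreign transcripts spiked into every sample.

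Gclc and Gclm encode the catalytic and the modifier subunit of glutamate-cysteine ligase, the rate-limiting enzyme of glutathione synthesis. The brighter Gclc probe set read 704, 666, 517, 735 and 577 in the vehicle rats and 1006, 866, 766, 1119 and 1227 in the RG3487 rats. The groups did not overlap, although the lowest treated rat, number 3, was close to vehicle rat 4. The log2 difference was 0.62 ± 0.13 (SE), or 1.54-fold. The second Gclc probe set, dimmer throughout, gave 416 ± 46 in vehicle and 717 ± 136 with RG3487 (SD, n = 5 each), a log2 difference of 0.75 ± 0.12. Both probe sets placed RG3487 rat 5 highest and rat 3 lowest of the treated animals.

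The modifier subunit placed the treated rats in the same order. Gclm read 1321, 1271, 962, 1295 and 1123 in the vehicle rats and 1686, 1660, 1568, 2033 and 2085 in the RG3487 rats. RG3487 rats 5 and 4 were again the highest and rat 3 the lowest treated animal, and vehicle rat 3 was the lowest of all, as it was for the brighter Gclc probe set. The log2 difference was 0.59 ± 0.10 (SE), or 1.51-fold, close to that of Gclc.

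Gsr encodes glutathione reductase, which returns oxidised glutathione to its reduced form with NADPH. Its signal was 133, 178, 126, 130 and 124 in the vehicle rats and 188, 188, 156, 236 and 222 in the RG3487 rats. Vehicle rat 2 stood apart from the other vehicle animals and exceeded RG3487 rat 3, so the groups overlapped. The log2 difference was 0.47 ± 0.12 (SE), or 1.39-fold, and it was 0.56 without vehicle rat 2.

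In the thioredoxin system, Txn1 encodes cytosolic thioredoxin, a small protein that reduces disulfides, and Txnrd1 the selenoprotein that recycles it. Txn1 was read at 3825, 4256, 3816, 3966 and 4180 in the vehicle rats and at 4423, 4880, 4683, 4568 and 4564 in the RG3487 rats. All treated animals exceeded all vehicle animals, but the step was small, with a log2 difference of 0.21 ± 0.05 (SE), or 1.15-fold. The difference was 0.13 and no longer past the threshold when each array was centred on its median, whereas it was 0.34 with quantile normalization and 0.41 with hybridization control scaling. Txn1 also had little spread between animals of a group, with a log2 SD smaller than in all but 3.1% of probe sets.

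Txnrd1 was higher by a similar amount on its 2 probe sets but with more scatter. The brighter one read 460, 357, 333, 384 and 298 in the vehicle rats and 443, 464, 383, 643 and 573 in the RG3487 rats. Vehicle rat 1 lay above RG3487 rats 1 and 3, vehicle rat 4 was level with RG3487 rat 3, and the log2 difference was 0.43 ± 0.14 (SE). On the dimmer probe set the groups did not overlap, with 295 ± 42 and 440 ± 83 (SD, n = 5 each) and a log2 difference of 0.54 ± 0.12. The call on the brighter probe set was lost with quantile normalization (0.33) and with centred arrays (0.35). It was also lost on leaving out vehicle rat 2, 3, 4 or 5 or RG3487 rat 2, 4 or 5, with differences of 0.33 to 0.45.

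Srxn1 encodes sulfiredoxin, which repairs over-oxidised peroxiredoxins. The brighter probe set read 91, 75, 56, 111 and 61 in the vehicle rats and 216, 99, 121, 228 and 181 in the RG3487 rats. RG3487 rat 2 fell below vehicle rat 4, and the other 4 treated rats lay above every vehicle rat. The log2 difference was 0.94 ± 0.22 (SE), or 1.91-fold. The second probe set, which was dim, gave 0.93 ± 0.20, from 30.4 ± 8.1 to 74.8 ± 26.4 (SD, n = 5 each). After Nfe2l2 and Nqo1 this was the largest difference among the 10 genes, and it was measured alike by both probe sets.

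Nqo1, a quinone reductase and a classical NRF2 target, had the widest spread. The vehicle rats gave 1056, 584, 141, 1004 and 597 and the RG3487 rats 1226, 306, 1864, 2141 and 1620. Vehicle rat 3 and RG3487 rat 2 were each far below the rest of their group, and RG3487 rat 2 was also below 4 of the 5 vehicle rats. The other 4 treated rats exceeded every vehicle rat. The log2 difference of 1.08 ± 0.57 (SE) was the second in size among the 10 genes but did not pass, with a 95% confidence interval of -0.16 to 2.31. Without RG3487 rat 2 the difference was 1.56 and passed. Without vehicle rat 3, in contrast, it was 0.61 and did not pass. The log2 SD within groups was 1.12, against a median of 0.15 over all probe sets tested, and higher than in 99.8% of them. Nqo1 was read by 1 probe set, so the low values of these animals have no second reading.

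Hmox1 encodes the inducible haem oxygenase, which breaks down haem and is a target of NRF2 in many cells. It read 151, 108, 119, 110 and 88 in the vehicle rats and 95, 95, 85, 110 and 115 in the RG3487 rats. The groups overlapped, with 88 to 151 in vehicle and 85 to 115 with RG3487. The log2 difference was -0.17, with a 95% confidence interval of -0.42 to 0.09. Its sign turned to 0.01 with hybridization control scaling. Hmox1 is also expressed by Kupffer cells, the macrophages of the liver. Summed over the 10 Kupffer cell markers with a probe set, the signal was 5087 to 6099 in the vehicle group and 3963 to 4895 with RG3487. Of these markers 3 of 10 were lower and 0 higher, beside 7.4% lower and 22.3% higher among all genes tested. None of the markers was at 0 on any array. Their part in the Hmox1 values was not tested, and in whole liver fewer cells of a type and less RNA per cell cannot be told apart.

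**Figure D2:**
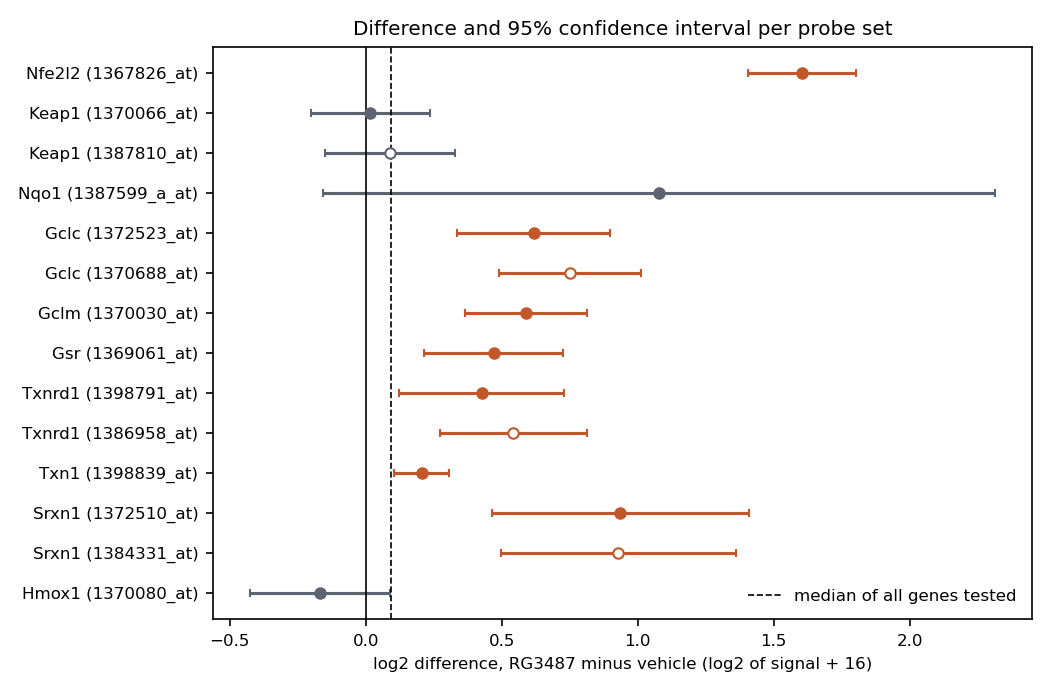
Log2 difference between RG3487 and vehicle (x axis, log2 of signal plus 16) for the 14 probe sets of the 10 genes, with 95% confidence intervals. Filled points are the brightest probe set of each gene, open points the other one, orange marks those past the limma threshold and grey those that did not pass, and the dashed line is the median of all genes at 0.09. Nfe2l2 lies at 1.60 with a narrow interval and Nqo1 at 1.08 with a wide one. Keap1 lies near 0, and Hmox1 at -0.17 with an interval of -0.42 to 0.09.

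Where a gene had 2 probe sets, they placed the difference alike. The pairs were 0.62 and 0.75 for Gclc, 0.43 and 0.54 for Txnrd1, 0.94 and 0.93 for Srxn1 and 0.02 and 0.09 for Keap1. The dimmer Srxn1 probe set lay close to the filter on dim signals, so nothing is read from its likeness.

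The order of the treated animals was compared over the 10 genes. RG3487 rat 4 was among the 2 highest treated animals in 8 genes and rat 5 in 6, whereas rat 3 was the lowest in 5 and rat 2 in 3. The order was not the same in every gene, since rat 3 was among the 2 highest in 3 genes and rat 4 the lowest in 1. Averaged over the 10 genes, the log2 value above the vehicle mean was 0.81 in rat 4, 0.75 in rat 5, 0.59 in rat 1, 0.47 in rat 3 and 0.27 in rat 2. For Nfe2l2 the highest treated animal was rat 1 at 2215, followed by rat 4 at 2076, while rat 5 was at 1963. Among the vehicle rats, rat 3 was the lowest in 5 genes and rat 1 among the 2 highest in 8. Array measures differed between animals as well. The ratio of 3′ to 5′ signal of the Gapdh control probe sets, a sign of RNA integrity and labelling, was 1.12 in both RG3487 rats 4 and 5 and 1.16 to 1.18 in the other treated rats. That of beta-actin was 2.96 and 2.73 in rats 4 and 5 and 3.07 to 3.54 in the others. In vehicle rats 1 to 5 the Gapdh ratio was 1.22, 1.18, 1.14, 1.23 and 1.24 and the beta-actin ratio 3.54, 2.97, 3.55, 3.43 and 3.60. Vehicle rats 3 and 5, with the lowest means over the 10 genes, had the highest beta-actin ratios. For Gapdh, vehicle rat 3 had the lowest ratio and vehicle rat 5 the highest. In the treated group the lowest ratios of both kinds were those of the highest rats. Both ratios had lower means with RG3487, at 1.15 ± 0.03 against 1.201 ± 0.041 for Gapdh and 3.10 ± 0.30 against 3.42 ± 0.26 for beta-actin (SD, n = 5 each). The part of these measures in the order of the animals and in the differences between the groups was not tested.

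**Figure D3:**
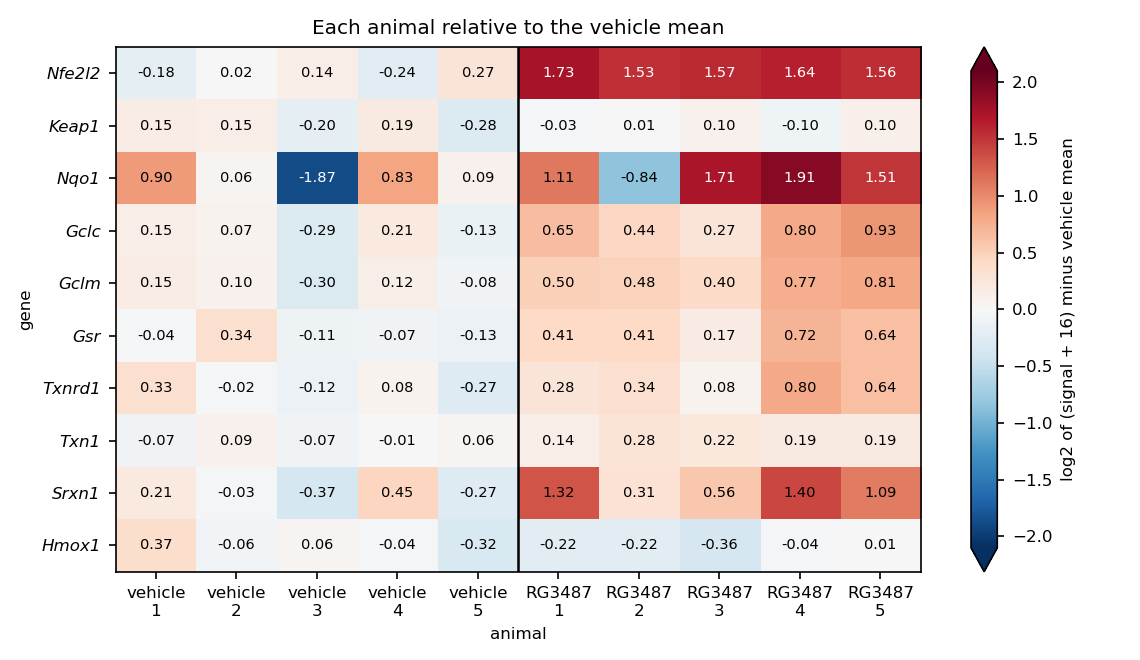
Log2 of signal plus 16 in each animal minus the vehicle mean, for the brightest probe set of the 10 genes (rows) in 5 vehicle and 5 RG3487 rats (columns), with the value printed in each cell. The Nfe2l2 row runs from 1.53 to 1.73 in the treated rats, while the Nqo1 row runs from -1.87 in vehicle rat 3 to 1.91 in RG3487 rat 4.

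The genes whose profile lay nearest to that of Nfe2l2 were found by the root mean square difference over the 10 animals, with log2 signals centred on each gene's vehicle mean. This measure takes in the group difference. Of 7726 genes compared, Ccng1, which encodes cyclin G1, was nearest at 0.23, followed by the steroid dehydrogenase gene Hsd17b2 (0.32), Synpo (0.35), the DNA repair gene Mgmt (0.36) and the clock gene Per2 (0.36). The nearest of the other 9 genes described here was Srxn1, in place 62 at 0.64. For Nqo1 the nearest gene was Ccn1 at 0.78 and the next was Srxn1, also at 0.78, ahead of Nrg1, Cyp2c22 and Pdlim1. Of these nearest genes, Per2 and Nrg1 were dim in the vehicle rats, at 17 to 41 and 14 to 30. The mean signal of Nrg1, raised by the treated rats (47 to 86), was above 25.1% of probe sets, just past the 25% filter. Nrg1 was tested under only 13 of 21 alternatives. Ccn1 read 63, 67, 10, 89 and 62 in the vehicle rats, so that vehicle rat 3 was the lowest there as for Nqo1. Ccn1 was picked for its nearness to Nqo1 over these same animals, so nothing is read from that shared low value. It was dim in that rat, and its difference did not pass (limma adjusted p = 0.0659). No gene was as near to Nqo1 as 62 genes were to Nfe2l2.

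Other genes of the pathway were followed in 5 lists of 79 genes, of which 62 were tested, 16 had no probe set of their own and 1 was too dim. Of the 62, 22 were higher and 6 lower, and their median log2 difference was 0.17. Over all 7727 genes tested, 22.3% were higher and 7.4% lower, with a median of 0.09. With centred arrays 14 were higher and 7 lower, and with hybridization control scaling 40 and 2. Among 10 regulators and partners of NRF2 only Cul3, the ubiquitin ligase scaffold that KEAP1 recruits, passed, from 671 ± 53 to 780 ± 60 (SD, n = 5 each; log2 difference 0.21 ± 0.07 SE, limma adjusted p = 0.0441). That call was lost under 13 of 21 alternatives, among them the omission of vehicle rat 1, 3, 4 or 5 or RG3487 rat 1, 4 or 5 (0.17 to 0.22), quantile normalization (0.14) and centred arrays (0.13), while hybridization control scaling gave 0.41. The list median was 0.08, and 0 of the 10 were lower, also at an unadjusted p under 0.05.

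In glutathione supply and use, 6 of 16 genes were higher and 3 lower, beside 22.3% and 7.4% of all genes tested. Gss, the second enzyme of glutathione synthesis and the partner of Gclc and Gclm, rose from 216 ± 39 to 368 ± 29 (SD, n = 5 each; log2 difference 0.74 ± 0.11 SE, limma adjusted p = 0.000613), and its groups did not overlap. Slc3a2, the heavy chain of the cystine carrier, rose by 0.55 ± 0.10 (adjusted p = 0.00277). Slc7a11, the other subunit gene of that carrier, had no probe set of its own and was not read. A glutaredoxin gene, Glrx3, rose by 0.76 ± 0.08 (adjusted p = 9.26e-05). The other glutaredoxin genes differed. Glrx was lower, at -0.39 without overlap, Glrx2 was higher, at 0.22, and Glrx5, at 0.25, did not pass. Chac1, which degrades glutathione, fell by 1.04 (SE 0.29, adjusted p = 0.0193), from 94.0 ± 53.8 to 34.8 ± 15.8. The Chac1 difference was -0.63 with a pseudocount of 64 and -1.35 with 1. Among 13 thioredoxin partners, 4 were higher and 3 lower, to be read beside the same shares of all genes. Txnrd3, a reductase related to Txnrd1, fell by 0.50 (SE 0.12, adjusted p = 0.00839), the thioredoxin inhibitor gene Txnip by 0.34 (SE 0.10, adjusted p = 0.0225) and Prdx4, a peroxiredoxin of the secretory pathway, by 0.31 (SE 0.05, adjusted p = 0.000909). Msrb2, a methionine sulfoxide reductase, rose by 0.32 ± 0.07 (adjusted p = 0.00794). Its difference was 0.22 with quantile normalization (limma adjusted p = 0.0487), 0.24 with centred arrays and 0.51 with hybridization control scaling. The other higher genes of the list were Txn2 and the peroxiredoxin genes Prdx2 and Prdx3, at 0.28, 0.28 and 0.20, each without overlap between the groups. The Txnrd3 difference was -0.30 with a pseudocount of 64. The Txnip call was lost without vehicle rat 4 or RG3487 rat 4 (-0.31 and -0.30) and with hybridization control scaling (-0.15), as was that of Prdx4 with the latter (-0.11).

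In haem breakdown and iron storage, 2 of 7 genes beside Hmox1 were higher and 0 lower, also at an unadjusted p under 0.05. By adjusted p, 22.3% of all genes tested were higher and 7.4% lower. Blvrb, which encodes a biliverdin reductase, rose from 496 ± 56 to 729 ± 59 (SD, n = 5 each, log2 difference 0.54 ± 0.08 SE, limma adjusted p = 0.000923). The other biliverdin reductase gene, Blvra, differed by -0.17 and did not pass. The haem transporter gene Slc48a1 rose by 0.20 ± 0.07 (adjusted p = 0.0452), a call lost under 13 of 21 alternatives, among them the omission of vehicle rat 1, 2, 4 or 5 or RG3487 rat 1, 2, 4 or 5 (0.16 to 0.22), quantile normalization (0.11) and centred arrays (0.12), while hybridization control scaling gave 0.38.

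Of 16 other known NRF2 targets, 9 were higher and 0 lower, the latter also at an unadjusted p under 0.05, with a list median of 0.38. By adjusted p, 22.3% of all genes tested were higher and 7.4% lower, with a median of 0.09. Akr7a3, an aldehyde reductase gene, showed the largest difference of the list, 1.90 ± 0.37 (SE, limma adjusted p = 0.0032), with 1226, 1963, 340, 1207 and 660 in the vehicle rats and 3302, 3843, 2233, 4386 and 4082 in the RG3487 rats. Vehicle rat 3 was again the lowest, as for Nqo1, Gclc and Gclm, but RG3487 rat 2 was not low. The glutathione transferase gene Gsta3 (1.68 ± 0.25, adjusted p = 0.000708), the epoxide hydrolase gene Ephx1 (1.29 ± 0.17, adjusted p = 0.000382) and the export pump gene Abcc2 (0.88 ± 0.10, adjusted p = 0.00013) also rose, without overlap between the groups. Several of these targets also respond to nuclear receptors, and glutathione transferase probe sets can read closely related genes.

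**Figure D4:**
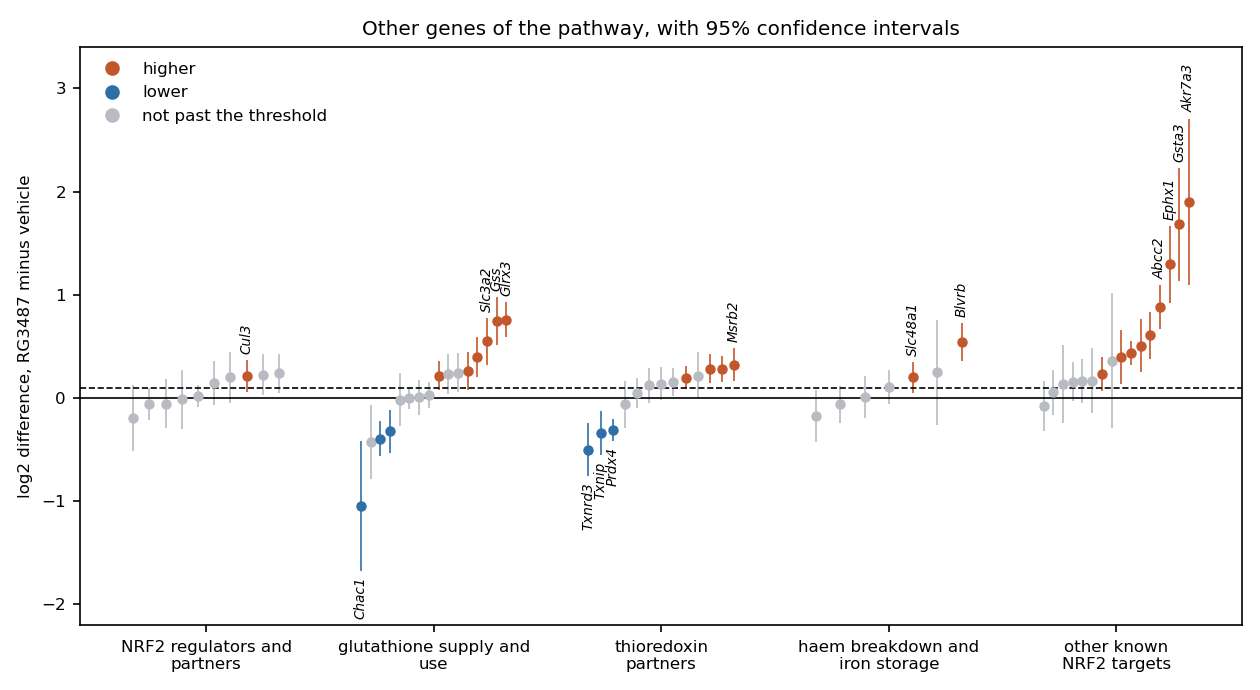
Log2 difference between RG3487 and vehicle (y axis) with 95% confidence intervals for the 62 other pathway genes tested, by list (x axis), ordered within each list. Orange points were higher, blue lower and grey not past the limma threshold, and the dashed line is the median of all genes at 0.09. Names mark up to 4 genes past the threshold with the largest difference in each list. The 3 genes above 1 all lie in the list of other known NRF2 targets, led by Akr7a3 at 1.90.

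The balance of calls over the whole array depended on the scaling. As deposited, 74.1% of the probe sets past the threshold were higher with RG3487, against 54.3% with quantile normalization, 50.4% with centred arrays and 94.5% with hybridization control scaling. That last scaling, which assumes that equal amounts were added to every sample, moved the median of all genes by 0.18, to 0.28. Relative to the median of all genes, the median of the 10 genes was 0.44 as deposited, 0.44 with quantile normalization, 0.44 with centred arrays and 0.45 with hybridization control scaling. The number of the 10 genes past the threshold was 7, 6, 5 and 7 in that order, and 0 were lower in each. Centring and control scaling change all probe sets of an array alike. They could therefore hardly move the median of the 10 genes relative to all genes, and nothing is read from its constancy there.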

How the data were processed

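The authors deposited linear signal intensities, rounded to whole numbers, for each probe set and array. They were computed with MAS5, per the submitters' processing notes, whose version and scaling target are not stated there. Of 15899 probe sets, 40 were controls and were left out, and of the others 12562 carried 1 gene symbol, 332 several and 2965 none. Intensities were analysed as log2 of signal plus 16, which shrinks the fold of dim genes, and the dimmest 25% of probe sets were left out, as judged by the mean over all arrays. RG3487 was compared with vehicle with limma 3.58.1 in R 4.3.3 (lmFit, eBayes with trend), with two-sided p adjusted by Benjamini-Hochberg over all probe sets and a threshold of 0.05. A gene was represented by its brightest probe set with 1 symbol. The titles name separate animals, and p-values measure the spread between them. The code was tested on simulated data.

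The 10 genes, the 5 pathway lists, the marker lists and the tests were chosen with earlier results of these data known. Named were all probe sets of the 10 genes, up to 4 genes past the threshold with the largest difference in each list, and the 5 genes nearest to Nfe2l2 and to Nqo1. Added beside these were the other higher thioredoxin partners, further glutaredoxin genes, Blvra and Slc7a11, which had no probe set of its own. Alternatives were pseudocounts of 1 and 64, quantile normalization, median centring, scaling by 18 hybridization control probe sets, no filter or a filter of 50%, eBayes without trend or robust, the replicate number as a block, the mean over the probe sets of a gene, and each animal left out in turn.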

Additional observations from a re-analysis of the deposited data

Results flagged for a closer look

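In each gene's probe sets, the gap between the most extreme of a group's 5 values and its neighbour was divided by the range of the group, on the log2 scale, and set against Dixon's critical value of 0.71. Of 28 groups checked, 1 exceeded it: Gsr in vehicle rat 2, with a signal of 178 and a ratio of 0.809. By chance about 1 group in 20 exceeds the limit. The low Nqo1 values of vehicle rat 3 (ratio 0.698) and RG3487 rat 2 stayed just under it.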

How the results depend on the processing

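Over 21 alternatives the number of the 10 genes higher with RG3487 was 5 to 7, with 0 lower throughout. Nfe2l2, Gclc, Gclm, Gsr and Srxn1 kept direction and call in all 21. Leaving out 1 animal gave 6 or 7 of the 10 genes higher. Among the other pathway genes, 22 higher and 6 lower as analysed, it gave 18 to 21 higher and 5 to 7 lower; centred arrays gave 14 higher, and hybridization control scaling 40 higher and 2 lower. Among 11894 probe sets, higher calls were 1418 with quantile normalization, 1359 with centred arrays (lower calls 1335) and 6309 with hybridization control scaling (lower calls 364). The Keap1 difference turned to -0.094 with quantile normalization and -0.0614 with centred arrays and ranged from -0.0545 to 0.0634 when 1 animal was left out. That of Hmox1 turned to 0.01005 with hybridization control scaling. The causes of these changes were not tested. The deviations of same-numbered animals correlated at -0.04 to 0.17 in 5 pairs, and 3 of 10 animals correlated best with their own number. Whether they shared more than a number was not tested. With the replicate number as a block, 7 of the 10 genes and 19 of the other pathway genes were higher, and 5 of the latter lower. That fit also ended the calls of Cul3 (adjusted p = 0.0561, range 0.000618 to 0.172 over its alternatives), Txnip (0.0591, range 0.00826 to 0.252) and Slc48a1 (0.0847, range 0.00154 to 0.241), whereas Ccn1 passed (0.0422, range 0.0127 to 0.132).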
